A study of Mus musculus with 12 samples.

Results

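An siRNA against Nampt was compared with a non-targeting siRNA in blastocysts of the HFD groups. The comparison rests on 4 of the 12 libraries of the study, 2 named HFD_siNampt and 2 named HFD_siNT, chosen by these labels, and it covers every gene in the count tables. Each library was made from a pool of 10 mouse blastocysts of the genotype ICR_WT, ICR being an outbred stock. Oocytes of superovulated females were fertilized in vitro, and the embryos were kept in the embryo culture medium KSOM until 96 hours post-insemination (hpi). The siNT and siNampt embryos had received their siRNA by electroporation as zygotes, at 3 to 6 hpi. The 2 HFD_C libraries are the control group of the same diet, and the labels are silent on whether those zygotes were also electroporated. ND and HFD are not spelled out in the labels, while the title of the series speaks of obese and normal weight mice. They also do not say which parent the diet refers to, or whether each pool had its own mating, so p-values measure the spread between pools, which may be technical. Bulk libraries of whole blastocysts cannot separate fewer cells of a type from less RNA per cell.

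Nampt encodes nicotinamide phosphoribosyltransferase, which turns nicotinamide into nicotinamide mononucleotide, the rate-limiting step of the salvage route to NAD. NAD carries electrons from glycolysis and the citrate cycle to respiratory complex I, and it is consumed by sirtuins and by poly(ADP-ribose) polymerases. The blastocyst holds an outer trophectoderm, which pumps fluid into the cavity, and an inner cell mass, which sorts into epiblast and primitive endoderm.

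The 4 libraries held 43619310 to 47542399 expected counts, and the range over all 12 was 42473129 to 50503064. Fragment size, read from the gap between gene length and effective length, was 186 bases in HFD_siNT replicate 1 against 217, 216 and 219.7 bases in the other 3 libraries compared. Markers of the sexes differed between the groups. Xist, which is transcribed from the inactive X of female cells, stood at 103 and 91.3 CPM, counts scaled to library size, in siNT, at 140.0 and 143 CPM in siNampt and at 105 and 103 CPM in HFD_C. The summed level of the 4 Y-linked genes Ddx3y, Eif2s3y, Uty and Kdm5d was 297 and 186 CPM in siNT, 151 and 63.2 CPM in siNampt and 302 and 276 CPM in HFD_C. The labels do not give the sex of the embryos, and the part of the pools' sex balance in the results was not tested beyond a fit with the Y-linked level as a covariate, whose values are given below. Maternal, 2-cell, cumulus and sperm markers are given with the gene groups.

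Nampt itself stood at 61.3 and 66.0 CPM in the siNT libraries and at 50.3 and 44.0 CPM in the siNampt libraries. The HFD_C libraries held 67.0 and 57.3 CPM. Both siNampt libraries were thus below all 4 others of the diet. The means were 63.6 ± 3.34 CPM in siNT and 47.2 ± 4.46 CPM in siNampt (SD, n = 2 each), and 62.1 ± 6.83 CPM in HFD_C. The log2 fold change was -0.43 with a standard error (SE) of 0.24, and edgeR's quasi-likelihood test gave an adjusted p of 0.923 (unadjusted 0.101). With the replicate number, which is the batch, as a block the value was -0.45 with an unadjusted p of 0.0367, and its adjusted p stayed above 0.05. In the deposited TPM values, which are per length, Nampt stood at 14.7 and 13.8 in siNT and at 11.6 and 11.1 in siNampt. In ND the same contrast was -0.44 (SE 0.24, unadjusted p 0.0975), and the difference between diets had an unadjusted p of 0.989. The ND groups overlapped, with 74.6 and 49.4 CPM in ND_siNT and 53.9 and 37.7 CPM in ND_siNampt. The ND_C libraries held 54.2 and 38.2 CPM, level with ND_siNampt. With the Y-linked level as a covariate the HFD value was -0.24, and with offsets for transcript length and GC content it was -0.30. RNA was measured at 96 hpi, long after the siRNA was given, and protein and NAD were not analysed here.

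**Figure D1:**
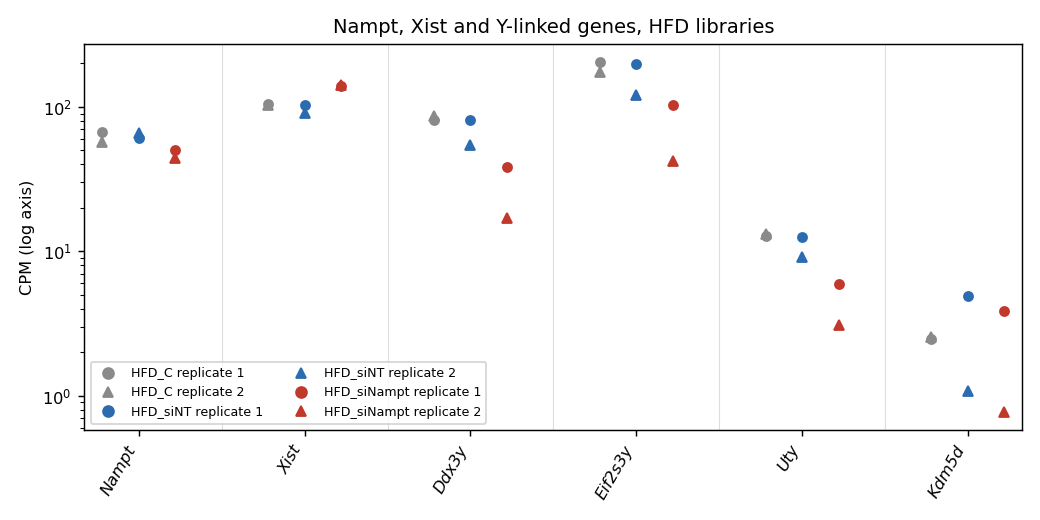
CPM (log axis) of Nampt, Xist and 4 Y-linked genes in the 6 HFD libraries, where each point is 1 library, colour is the treatment and shape is the replicate number. Nampt lies at 50.3 and 44.0 CPM in siNampt, under the 4 other libraries, while Xist is higher and Ddx3y, Eif2s3y and Uty are lower in both siNampt libraries than in both siNT libraries.

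Across the transcriptome no gene passed the threshold. In edgeR's quasi-likelihood test 0 of 14743 genes reached an adjusted p under 0.05 (0.0%), and the smallest adjusted p was 0.923, which is also the adjusted p of every gene named below unless said otherwise. At an unadjusted p under 0.05 there were 630 genes, or 4.27% of those tested. Of these, 290 were higher in siNampt (1.97%) and 340 were lower (2.31%). DESeq2 called 2 genes, Tmem254c and Gm10052 (0.0136%), and limma on log2 TPM called 0. Limma on log2(TPM + 1) also split the genes of unadjusted p under 0.05 otherwise, into 553 higher and 142 lower. Among all genes tested 53.7% had a log2 fold change above 0 and 46.3% below, with a median of 0.04. In 17.9% both siNampt libraries lay above both siNT libraries, and in 15.6% both lay below. The count of genes of unadjusted p under 0.05 was 782 without HFD_siNT replicate 1, 267 without HFD_siNT replicate 2, 1255 without HFD_siNampt replicate 1 and 940 without HFD_siNampt replicate 2. The genes described next are therefore those that stood out most, with their values, and not genes shown to change.

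The lower and higher genes differed in base composition. Transcripts of the 340 lower genes had a median GC content of 42.5%, those of the 290 higher genes 54.6%, and all genes tested 49.7%. In 5 bins of equal size by GC content the median log2 fold change went from -0.20 in the bin of lowest GC through -0.09, 0.00 and 0.09 to 0.18 in the bin of highest GC. The trend was smaller in the pair of batch 1 libraries, from -0.11 to 0.06, than in the pair of batch 2 libraries, from -0.31 to 0.29. In ND it ran from -0.18 to 0.25. Offsets that removed each library's trend on length and GC content brought the medians of the bins to between -0.01 and 0.00 and left 378 genes at an unadjusted p under 0.05, of which 252 were among the 630. Whether GC content moves with the treatment or with the preparation of the libraries was not tested.

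**Figure D2:**
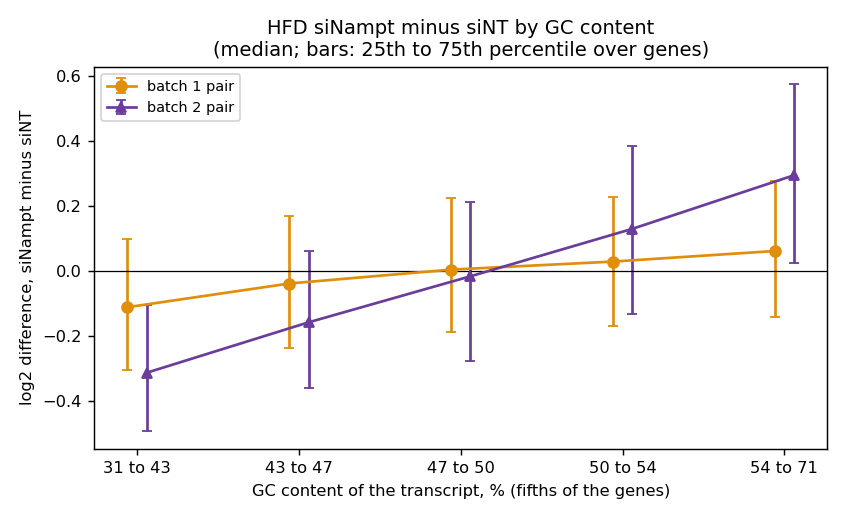
Median log2 difference, siNampt minus siNT, over 5 bins of genes ranked by the GC content of their transcripts, for the batch 1 and the batch 2 pair of HFD libraries, with bars from the 25th to the 75th percentile over genes. In batch 2 the medians climb from -0.31 to 0.29, and in batch 1 from -0.11 to 0.06.

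The 2 genes that mark this contrast are Mospd1 and Esco1, both lower in siNampt. Mospd1 lies on the X chromosome (GRCm38.p6, chrX:53344594-53370658) and encodes a membrane protein with a major sperm protein (MSP) domain. It stood at 168 and 195 CPM in siNT, 119 and 109.7 CPM in siNampt, and 194 and 159.9 CPM in HFD_C. Both siNampt libraries were below the 4 others. The log2 fold change was -0.67 (SE 0.16, unadjusted p 0.0014), with -0.50 in the batch 1 pair and -0.83 in the batch 2 pair. In ND it was -0.03 (SE 0.16), and the difference between diets was -0.64 (SE 0.23, unadjusted p 0.0166, edgeR adjusted p 1.00). Offsets for length and GC content gave -0.40, and the Y-linked covariate gave -0.74.

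Promoters of 3 of the 12 lower genes of smallest p, Mospd1 and the genes Idi1 and Hmgb2 described further on, are printed because these genes lay on the same side of siNT and differ in function. Each is RefSeq's window of 300 bases around a gene start (GRCm38.p6), on the gene's strand. Every match to GGGCGG (or CCGCCC on the other strand) and to CCAAT (or ATTGG) is in capitals. Most of the window lies before the gene start for Idi1 and Hmgb2. For Mospd1, whose minus-strand gene begins at 53370658, the window reaches further into the gene. The windows are chrX:53370510-53370809 for Mospd1 on the minus strand, chr13:8885356-8885655 for Idi1 on the plus strand and chr8:57511593-57511892 for Hmgb2 on the plus strand.
Mospd1: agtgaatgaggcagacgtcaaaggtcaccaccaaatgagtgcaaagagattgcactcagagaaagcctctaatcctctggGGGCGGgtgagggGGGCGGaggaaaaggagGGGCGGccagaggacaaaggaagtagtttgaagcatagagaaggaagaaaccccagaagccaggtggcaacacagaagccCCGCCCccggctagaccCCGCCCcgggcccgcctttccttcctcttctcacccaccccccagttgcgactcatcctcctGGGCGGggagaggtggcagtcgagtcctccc
Idi1: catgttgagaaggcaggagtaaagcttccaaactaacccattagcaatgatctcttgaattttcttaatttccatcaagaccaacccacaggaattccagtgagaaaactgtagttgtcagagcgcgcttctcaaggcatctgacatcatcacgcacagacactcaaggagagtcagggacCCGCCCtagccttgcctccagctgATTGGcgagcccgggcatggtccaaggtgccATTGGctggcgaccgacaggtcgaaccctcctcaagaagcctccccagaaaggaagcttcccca
Hmgb2: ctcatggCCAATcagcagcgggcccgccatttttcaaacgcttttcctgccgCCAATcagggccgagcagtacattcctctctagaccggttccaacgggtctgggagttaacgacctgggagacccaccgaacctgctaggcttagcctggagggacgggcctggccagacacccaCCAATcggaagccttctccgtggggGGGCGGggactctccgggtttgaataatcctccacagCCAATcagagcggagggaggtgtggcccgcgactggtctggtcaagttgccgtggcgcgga
GGGCGG, searched on both strands, was in 8 of the 9 lower genes and 11 of the 11 higher genes of smallest p that the RefSeq table holds. The share was 61.5% over 11739 genes tested and 35.7% over all 32851 promoters of the table. CCAAT, searched likewise, was in 4 of 9 and 5 of 11, against 39.6% and 37.4%. These motifs thus stood in the windows of lower and higher genes alike, and a match of letters is no binding site.

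Esco1 lies on chromosome 18 (GRCm38.p6, chr18:10566507-10610863) and encodes an acetyltransferase of the cohesin subunit Smc3. Its levels were 86.4 and 85.0 CPM in siNT but 51.1 and 52.3 CPM in siNampt, while HFD_C held 100.3 and 66.5 CPM. The siNampt libraries were again below the 4 others, although HFD_C spread widely. The log2 fold change was -0.73 (SE 0.20, unadjusted p 0.00272), with -0.76 and -0.70 in the batch 1 and batch 2 pairs. In ND it was 0.05 (SE 0.19), with a difference between diets of -0.78 (SE 0.28, unadjusted p 0.0145, edgeR adjusted p 1.00). Offsets for length and GC content gave -0.55. Mospd1 and Esco1 were proposed as marking genes with results of these data known, so their place among the lowest p-values is a description.

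Among the 12 lower genes of smallest p, of those with no overlap between the groups and a mean of at least 5 CPM, were Tmem254c, Mospd1, Esco1, Rnf146, Idi1, Rnf2, Calm2, Hmgb2, Rab5a, Slc25a40 and Tfb1m. The log2 fold changes of the 12 ran from -1.51 to -0.45. Rab5a, a GTPase of early endosomes, stood at 188 and 204 CPM in siNT, 137 and 149 CPM in siNampt and 200.04 and 186 CPM in HFD_C (log2 fold change -0.45, SE 0.13). Its siNampt libraries lay under the 4 others, and the 2 batch pairs gave -0.45 and -0.45. Calm2, a calmodulin gene, had 3108 and 3710.5 CPM in siNT, 2569 and 2302 CPM in siNampt and 3657 and 2939.6 CPM in HFD_C (-0.49, SE 0.14), and offsets for length and GC content brought it to -0.22 (unadjusted p 0.0509).

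Chromatin proteins were 2 of the lower genes. Rnf2, the ubiquitin ligase of Polycomb repressive complex 1, stood at 263 and 219 CPM in siNT, 166 and 169 CPM in siNampt and 266 and 215 CPM in HFD_C (-0.52, SE 0.15). The chromatin protein gene Hmgb2 stood at 1948 and 1943 CPM in siNT, 1502 and 1274 CPM in siNampt and 1887 and 1690.1 CPM in HFD_C (-0.49, SE 0.14), and the same offsets gave -0.25 (unadjusted p 0.0601). Rnf146 encodes a ubiquitin ligase that binds poly(ADP-ribosyl)ated proteins, a modification made from NAD. Its levels were 30.6 and 25.1 CPM in siNT, 14.1 and 17.2 CPM in siNampt and 27.9 and 26.7 CPM in HFD_C (-0.83, SE 0.23). For these 3 genes the siNampt libraries were the lowest of the 6.

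Idi1 encodes isopentenyl diphosphate isomerase of the mevalonate route to cholesterol. It stood at 254 and 252 CPM in siNT, 148 and 111 CPM in siNampt and 267 and 169.6 CPM in HFD_C (-0.97, SE 0.27). The lower HFD_C library was thus nearer to siNampt than to siNT. Slc25a40, a carrier of glutathione into mitochondria, had 33.4 and 50.9 CPM in siNT, 23.6 and 23.8 CPM in siNampt and 51 and 37.4 CPM in HFD_C (-0.83, SE 0.25). Tfb1m, which methylates the small ribosomal RNA of mitochondria, had 25.3 and 28.6 CPM in siNT, 16.4 and 17.8 CPM in siNampt and 26.2 and 29.3 CPM in HFD_C (-0.66, SE 0.20). Tmem254c had the smallest p of the comparison, 0.000384, with 16.3 and 17.4 CPM in siNT, 7.34 and 4.50 CPM in siNampt and 7.64 and 11.8 CPM in HFD_C (-1.51, SE 0.31). Here the HFD_C mean of 9.70 CPM lay between those of siNampt (5.92 CPM) and siNT (16.8 CPM). Because near-identical copies of the gene exist, its reads may have been split between them.

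Lower genes of larger change but wider spread were F3, Gm773, Ddx3y, Gm364 and Cidea. F3, which encodes tissue factor, stood at 6.96 and 22.5 CPM in siNT, 6.33 and 3.54 CPM in siNampt and 6.66 and 10.8 CPM in HFD_C, so that its value of -1.58 (SE 0.60) comes mostly from 1 siNT library. Cidea, a lipid droplet protein gene, had 13.0 and 19 CPM in siNT, 8.75 and 5.31 CPM in siNampt and 8.21 and 7.71 CPM in HFD_C (-1.19, SE 0.51), with HFD_C level with siNampt. The X-linked Gm364 had 26.2 and 27.2 CPM in siNT, 7.98 and 14.3 CPM in siNampt and 15.0 and 17.4 CPM in HFD_C (-1.26, SE 0.57). Gm773, also on the X chromosome, had 33.5 and 23.0 CPM in siNT, 14.0 and 8.38 CPM in siNampt and 26.8 and 15.1 CPM in HFD_C (-1.34, SE 0.59). Ddx3y, a Y-linked RNA helicase gene, had 81.5 and 54.4 CPM in siNT, 38.2 and 16.9 CPM in siNampt and 80.7 and 87.0 CPM in HFD_C (-1.30, SE 0.57). Over all 574 X-linked genes tested the median log2 fold change was 0.01, with 17 higher (2.96%) and 18 lower (3.14%) at an unadjusted p under 0.05, against 1.97% and 2.31% of all genes tested.

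**Figure D3:**
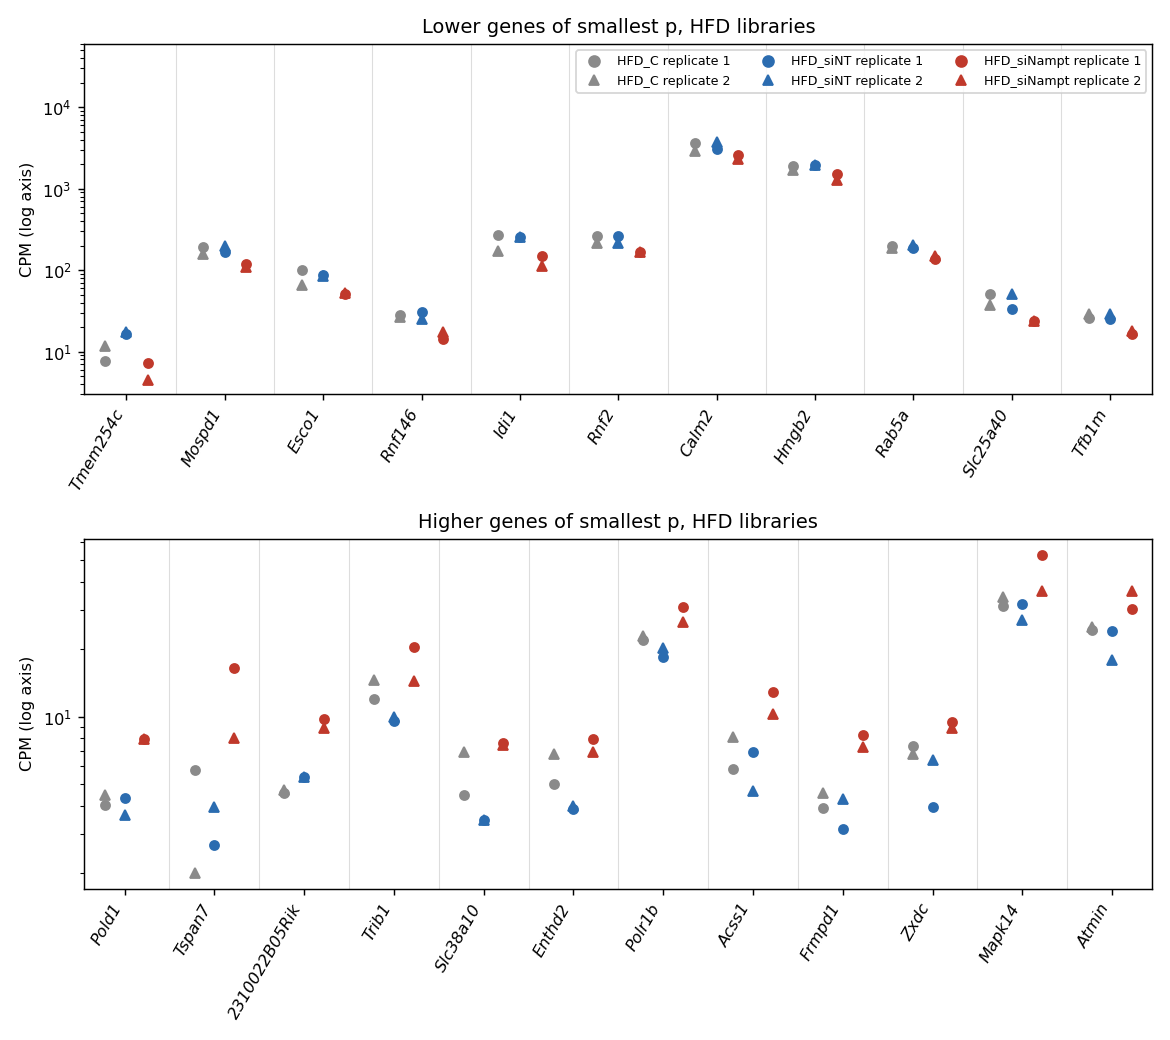
CPM (log axes) of the lower genes (top) and the higher genes (bottom) of smallest p named in the text in the 6 HFD libraries, where each point is 1 library, colour is the treatment and shape is the replicate number. The siNampt points lie under both siNT points in the top panel and over both in the bottom panel because the genes were chosen so, and the HFD_C points took no part in the choice.

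The 12 higher genes of smallest p under the same rule were Pold1, Tspan7, 2310022B05Rik, Trib1, Slc38a10, Enthd2, Polr1b, Acss1, Frmpd1, Zxdc, Mapk14 and Atmin, with log2 fold changes from 0.57 to 1.88. They were less abundant in the libraries than the lower genes, at a median mean level of 7.57 CPM against 134 CPM. Polymerase genes were 2 of them. Pold1, the catalytic subunit of DNA polymerase delta, stood at 4.35 and 3.65 CPM in siNT, 7.96 and 7.93 CPM in siNampt and 4.05 and 4.48 CPM in HFD_C (0.99, SE 0.29). Polr1b, a core subunit of RNA polymerase I, stood at 18.5 and 20.2 CPM in siNT, 30.7 and 26.6 CPM in siNampt and 21.9 and 22.9 CPM in HFD_C (0.57, SE 0.18). In both the siNampt libraries were the highest of the 6.

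Stress and signalling genes among the higher ones were Mapk14, Trib1 and Atmin. Mapk14, the stress kinase p38 alpha, had 32 and 26.9 CPM in siNT, 52.9 and 36.5 CPM in siNampt and 31.1 and 34.1 CPM in HFD_C (0.60, SE 0.20). Trib1, a pseudokinase gene, had 9.61 and 10 CPM in siNT, 20.5 and 14.5 CPM in siNampt and 11.9 and 14.6 CPM in HFD_C (0.84, SE 0.26). One HFD_C library matched the lower siNampt library for Trib1. Atmin, a zinc finger protein that interacts with the kinase ATM, had 24.1 and 18.0 CPM in siNT, 30.2 and 36.6 CPM in siNampt and 24.4 and 25.2 CPM in HFD_C (0.67, SE 0.22).

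Carriers and metabolic genes followed. Acss1, a mitochondrial enzyme that makes acetyl-CoA from acetate, stood at 6.98 and 4.65 CPM in siNT, 12.9 and 10.3 CPM in siNampt and 5.88 and 8.11 CPM in HFD_C (0.99, SE 0.32). Slc38a10, of the amino acid transporter family SLC38, stood at 3.48 and 3.46 CPM in siNT, 7.66 and 7.46 CPM in siNampt and 4.46 and 6.93 CPM in HFD_C (1.12, SE 0.35). Its neighbour on chromosome 11, Enthd2, stood at 3.87 and 4.0 CPM in siNT, 7.96 and 6.97 CPM in siNampt and 5.01 and 6.79 CPM in HFD_C (0.92, SE 0.30). For this neighbouring pair HFD_C lay between the siRNA groups, nearly reaching siNampt in replicate 2. Tspan7, an X-linked tetraspanin gene, had 2.67 and 3.97 CPM in siNT, 16.5 and 8.04 CPM in siNampt and 5.79 and 2.01 CPM in HFD_C (1.88, SE 0.56).

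The remaining higher genes had siNampt levels between 7.33 and 9.73 CPM. Frmpd1, with FERM and PDZ domains, had 3.15 and 4.28 CPM in siNT, 8.32 and 7.33 CPM in siNampt and 3.92 and 4.58 CPM in HFD_C (1.08, SE 0.35). The zinc finger gene Zxdc had 3.97 and 6.41 CPM in siNT, 9.45 and 8.93 CPM in siNampt and 7.38 and 6.81 CPM in HFD_C (0.83, SE 0.27). The gene 2310022B05Rik had 5.38 and 5.40 CPM in siNT, 9.73 and 8.91 CPM in siNampt and 4.57 and 4.70 CPM in HFD_C (0.79, SE 0.24). Of larger change but wider spread were Slc27a3, Klk10 and Cdan1. Slc27a3, of the fatty acid transport protein family, had 4.45 and 2.57 CPM in siNT, 5.05 and 9.83 CPM in siNampt and 4.92 and 5.12 CPM in HFD_C (1.08, SE 0.41). The kallikrein gene Klk10 had 3.75 and 3.11 CPM in siNT, 5.07 and 8.87 CPM in siNampt and 5.12 and 2.13 CPM in HFD_C (1.02, SE 0.44). Cdan1, which encodes codanin, had 6.56 and 4.14 CPM in siNT, 13.4 and 8.12 CPM in siNampt and 5.62 and 6.89 CPM in HFD_C (1.01, SE 0.37).

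HFD_C was nearer to siNT than to siNampt in 11 of the 12 lower and 8 of the 12 higher genes. Its mean lay between the means of the siRNA groups in 10 lower and 11 higher genes and beyond siNT in 2 and 1. Both the siNT and the siNampt values took part in choosing the genes, and the HFD_C values did not. The same shares over all genes tested are not given here, so these counts are a description only. Transcripts of the 12 lower genes had a median GC content of 40.7%, those of the 12 higher genes 53.3%. With offsets for length and GC content 8 of the 12 lower and 11 of the 12 higher genes kept an unadjusted p under 0.05, and with the Y-linked covariate 12 and 11 did. Without HFD_siNT replicate 1, the library of shorter fragments, 12 and 9 did. Under these alternatives and the others run the direction of these 24 genes was as given. That outcome was largely set by choosing genes without overlap between the groups, because the alternatives used the same libraries.

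A few genes were at 0 counts in both libraries of 1 group and at 10 or more in each library of the other. Galnt16, a GalNAc transferase gene, had 0 counts in both siNT libraries, 20 and 21 counts in siNampt and 4 and 1 counts in HFD_C, at least 13.3-fold higher when siNT is set at a floor of 3 counts over the group. Mageb18, X-linked, had 13 and 16 counts in siNT, 0 in both siNampt libraries and 0 in both HFD_C libraries, at least 9.94-fold lower by the same floor. Gm3417 and Gm3448 had identical counts, 35 and 33 in siNT, 0 in both siNampt libraries and 22 and 0 in HFD_C, at least 23.3-fold lower. They are neighbouring near-identical copies on chromosome 17 and count as 1 observation. Gm10052, called by DESeq2, was at 15.4 CPM in siNampt replicate 2 and at 0 in the other 5 HFD libraries, so it rests on 1 library. These levels are low. The floor of 3 counts allows for counting error only, and no interval is given for the fold values.

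The diets were set side by side for the same genes. The ND contrast uses 4 other libraries, of which 1230 genes (8.34%) had an unadjusted p under 0.05. Of the 12 lower genes 8 were below 0 in ND too, where 49.0% of all genes were, and 2 of them, Calm2 (-0.30) and Tfb1m (-0.46), had an unadjusted p under 0.05, against 3.74% of all genes lower in ND. Of the 12 higher genes 8 were above 0 in ND, where 50.9% of all genes were. Tspan7 (1.65), 2310022B05Rik (0.67) and Enthd2 (0.79) had an unadjusted p under 0.05, against 4.61% of all genes higher in ND. The ND contrast held the GC trend given above as well.

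The test of the difference between diets called 0 genes past an adjusted p of 0.05 in edgeR, with 451 genes (3.06%) at an unadjusted p under 0.05. Of the 24 genes, 6 of the 12 lower genes and 4 of the 12 higher genes were among them, which the choice of the genes in HFD favours. The lower ones included Tmem254c, Mospd1, Esco1, Rnf146 and Rab5a. Rab5a was 0.09 in ND (SE 0.13) with a difference of -0.54 (SE 0.19, unadjusted p 0.0139). The higher ones were Trib1, Slc38a10, Polr1b and Zxdc. Slc38a10 was -0.34 in ND (SE 0.35) with a difference of 1.46 (SE 0.50, unadjusted p 0.0122), and Trib1 was -0.22 in ND (SE 0.26) with a difference of 1.06 (SE 0.36, unadjusted p 0.0124). The edgeR adjusted p of each of these differences was 1.00.

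**Figure D4:**
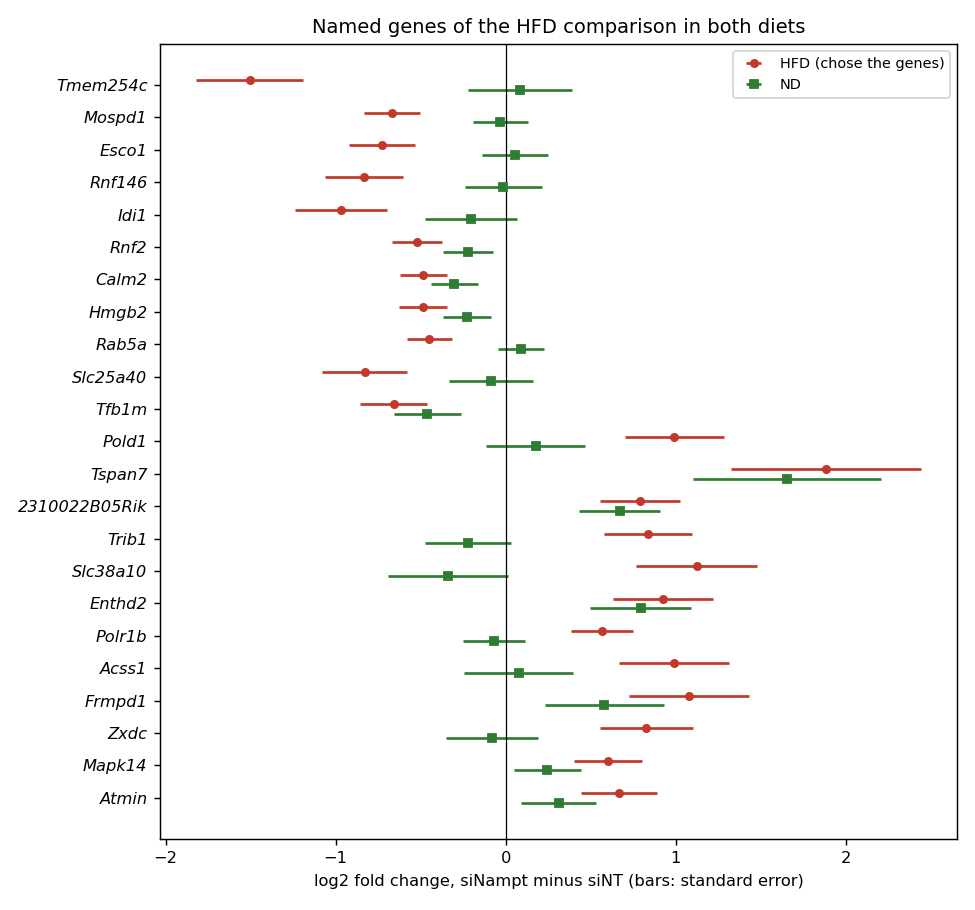
Log2 fold changes, siNampt minus siNT, of the same named genes in HFD, where they were chosen, and in ND, with bars of 1 standard error. In ND the lower genes range from -0.46 to 0.09, and Tspan7, 2310022B05Rik and Enthd2 are higher in both diets.

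Gene groups are described by how many members lay in each direction, beside the 46.3% of all genes below 0, the median of 0.04, and the 1.97% higher and 2.31% lower at an unadjusted p under 0.05. With 2 libraries a group these medians are loose. Leaving out 1 library turned the sign of the median in 22 of the 39 lists, and turned it or moved it by over 1.5 times in 38. The batch pairs lay on opposite sides of 0 in 19 lists, and offsets for length and GC content turned 9. Of the 48 genes named with the lists, beyond Nampt, Ddx3y and the genes of smallest p above, 36 had an unadjusted p under 0.05. It stayed under 0.05 in 13 of the 36 with the length and GC offsets, in 11 with the Y-linked covariate and in 30 with the replicate block. Without HFD_siNT replicate 1 it did in 19, without HFD_siNT replicate 2 in 9, without HFD_siNampt replicate 1 in 22 and without HFD_siNampt replicate 2 in 9.

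In the route to NAD, 12 genes were tested, of which 8 were higher and 4 lower, with a median of 0.07. Naprt, which makes NAD from nicotinic acid, had 1.28 and 0.818 CPM in siNT, 2.29 and 2.81 CPM in siNampt and 1.39 and 1.37 CPM in HFD_C (1.28, SE 0.52, unadjusted p 0.0301). Nmrk1, a kinase of nicotinamide riboside, had 51.5 and 48.7 CPM in siNT, 37.5 and 39.0 CPM in siNampt and 52.2 and 50.5 CPM in HFD_C (-0.39, SE 0.18, unadjusted p 0.0483). These 2 enzymes of parallel routes thus stood on opposite sides of siNT. Among 19 NAD consumers 13 were higher and 6 lower, with a median of 0.12. Parp2, a poly(ADP-ribose) polymerase, stood at 146 and 169 CPM in siNT, 113 and 131 CPM in siNampt and 155 and 141 CPM in HFD_C (-0.36, SE 0.15, unadjusted p 0.0274). Parp1 went the other way, with 83.6 and 68.6 CPM in siNT, 97.7 and 90.1 CPM in siNampt and 70.5 and 84.1 CPM in HFD_C (0.30, SE 0.17).

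Nuclear genes of oxidative phosphorylation lay on the lower side in most cases. Of 77 tested, 68 (88.3%) were below 0, with a median of -0.22, and 5 (6.49%) had an unadjusted p under 0.05, all lower, against 2.31% of all genes. By complex the lower members were 32 of 36 in complex I (median -0.21), 22 of 25 in complexes II to IV (-0.24) and 14 of 16 in ATP synthase (-0.23). The median was 0.00 in the batch 1 pair and -0.46 in the batch 2 pair. In 28 of the 77 both siNampt libraries lay below both siNT libraries, against 15.6% of all genes. In ND the median was -0.27, and offsets for length and GC content brought the HFD median to -0.09. Median length of these transcripts was 692 bases against 2621 bases over all genes tested. Leaving out 1 library at a time gave -0.38 to -0.08, the latter without HFD_siNampt replicate 2, and every alternative run for this list kept a negative median.

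The 5 genes were Ndufv2, Cox6b1, Sdhc, Sdhd and Atp5f1. Ndufv2, a complex I subunit of the module that takes electrons from NADH, had 608 and 699 CPM in siNT, 566 and 454 CPM in siNampt and 616 and 556 CPM in HFD_C (-0.36, SE 0.15). Atp5f1, a subunit of the ATP synthase stalk, had 1368 and 1609.6 CPM in siNT, 1202 and 1058 CPM in siNampt and 1532 and 1351 CPM in HFD_C (-0.40, SE 0.15). With offsets for length and GC content Ndufv2 was -0.09 (unadjusted p 0.521) and Atp5f1 -0.03 (unadjusted p 0.790), and none of the 5 kept an unadjusted p under 0.05. Cox6b1 of complex IV had 1048 and 1205 CPM in siNT, 989.9 and 776 CPM in siNampt and 947 and 1006 CPM in HFD_C (-0.35, SE 0.14). The batch 1 difference of Cox6b1 was only -0.08, and both HFD_C libraries lay under both siNT libraries. Sdhc and Sdhd, the membrane anchors of complex II, had values of -0.29 (SE 0.13) and -0.32 (SE 0.15). Sdhc stood at 203 and 211 CPM in siNT, 160.3 and 178 CPM in siNampt and 182 and 192 CPM in HFD_C, and Sdhd at 367 and 388, 323 and 282, and 412 and 348 CPM. Sdhc was lower in both batch pairs, at -0.34 in batch 1 and -0.25 in batch 2.

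By their medians in the fit over both batches, other metabolic groups stood nearer to all genes. The citrate cycle and pyruvate dehydrogenase list had 14 of 20 members lower with a median of -0.05. Its median was -0.17 in the batch 1 pair and 0.03 in the batch 2 pair. By the share of small p-values this list was not nearer. Of its 20 members 2 had an unadjusted p under 0.05, both lower, against 2.31% of all genes. Dld, the dihydrolipoamide dehydrogenase shared by several 2-oxoacid complexes, stood at 288 and 284 CPM in siNT, 222 and 204 CPM in siNampt and 358 and 262 CPM in HFD_C (-0.43, SE 0.16, unadjusted p 0.0227). Mdh1, cytosolic malate dehydrogenase, stood at 565 and 678 CPM in siNT, 504 and 448 CPM in siNampt and 534 and 569 CPM in HFD_C (-0.38, SE 0.17, unadjusted p 0.0382). Glycolysis had 12 of 22 higher, a median of 0.04 and 0 members at an unadjusted p under 0.05. In fatty acid oxidation 12 of 21 were lower (median -0.01), and Acadm, the medium-chain acyl-CoA dehydrogenase, had 572 and 683 CPM in siNT, 447 and 549 CPM in siNampt and 676 and 639 CPM in HFD_C (-0.33, SE 0.14). Fatty acid synthesis and lipid droplet genes were 15 lower and 14 higher (median -0.01), with Cidea as the member of smallest p.

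Cholesterol synthesis had 13 of 24 members lower and a median of -0.01, with 0.09 in the batch 1 pair and -0.31 in the batch 2 pair. Beside Idi1, Nsdhl, an X-linked sterol dehydrogenase, had 88.0 and 76.3 CPM in siNT, 64.0 and 53 CPM in siNampt and 82.1 and 63.6 CPM in HFD_C (-0.49, SE 0.18, unadjusted p 0.0201). Cyp51, lanosterol demethylase, had 59.1 and 43.8 CPM in siNT, 46.1 and 25.3 CPM in siNampt and 53.5 and 43.2 CPM in HFD_C (-0.53, SE 0.28), with overlap between the groups. Fdft1, squalene synthase, gave -0.29 (SE 0.21), with 190.0 and 143 CPM in HFD_C.

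Genes of the ATF4 and amino acid stress list were lower in 18 of 25 cases with a median of -0.28, but the batch pairs disagreed, at 0.13 in batch 1 and -0.59 in batch 2. In the leading genes of the list HFD_siNT replicate 2 was the highest of the 6 libraries. Asns, asparagine synthetase, stood at 259 and 433 CPM in siNT, 212 and 192 CPM in siNampt and 218 and 269 CPM in HFD_C (-0.77, SE 0.37). Cth, which makes cysteine, stood at 50.9 and 87.5 CPM in siNT, 40.8 and 38.5 CPM in siNampt and 55.7 and 58.8 CPM in HFD_C (-0.80, SE 0.27, unadjusted p 0.0123). Without HFD_siNT replicate 2 the list's median was -0.01, and without replicate 1 it was -0.64. The serine synthesis genes Psph and Psat1 gave -0.76 (SE 0.39) and -0.71 (SE 0.49), with 48.1 and 69.0 CPM of Psph and 169.6 and 268 CPM of Psat1 in HFD_C. The fit with the Y-linked covariate and the replicate number gave a median of 0.00. For the unfolded protein response 13 of 22 were higher (median 0.11), with 0 at an unadjusted p under 0.05.

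Lineage markers gave mixed values. Trophectoderm markers were 12 higher and 12 lower (median -0.04), and their summed level was 21460.4 and 27669.6 CPM in siNT, 19479.7 and 19939.6 CPM in siNampt and 21176 and 23295 CPM in HFD_C. A large part of that sum was Fabp3. The members named next are those of smallest p and all were lower, while none of the 12 higher members is described here. Dppa1 had 2009 and 2188 CPM in siNT, 1665 and 1402 CPM in siNampt and 2355 and 1955 CPM in HFD_C (-0.45, SE 0.14, unadjusted p 0.00649). Fabp3, a fatty acid binding protein, had 7707 and 11437 CPM in siNT, 7072 and 6494 CPM in siNampt and 7225 and 8439.9 CPM in HFD_C (-0.50, SE 0.18, unadjusted p 0.0167). Fabp3 was -0.76 without HFD_siNT replicate 1 and -0.19 (unadjusted p 0.277) without HFD_siNT replicate 2. The siNampt libraries were the lowest for both genes. Tspan8 and the X-linked Plac1 gave -0.67 (SE 0.31) and -0.89 (SE 0.42), each with its highest value in HFD_siNT replicate 2. In HFD_C Tspan8 stood at 2305 and 2866 CPM and Plac1 at 547 and 578 CPM. In the tight junction and cavity list 16 of 26 were higher (median 0.09). Its gene of smallest p, the glycerol channel Aqp3, stood at 71.0 and 61.1 CPM in siNT, 49.7 and 46.4 CPM in siNampt and 53.5 and 67.4 CPM in HFD_C (-0.46, SE 0.21), with 0.46 in ND and a difference between diets of -0.92 (SE 0.30, unadjusted p 0.00904). That difference did not pass edgeR's adjustment. With the replicate block the HFD value of Aqp3 had an unadjusted p of 0.0530, and without HFD_siNT replicate 1 the value was -0.35.

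Inner cell mass and epiblast markers were higher in 17 of 23 cases (median 0.12), with 0 at an unadjusted p under 0.05. Their median was -0.08 in the batch 1 pair and 0.35 in the batch 2 pair. It was 0.01 without HFD_siNT replicate 2 and 0.03 without HFD_siNampt replicate 2. The summed level of these markers was 17066 and 18696 CPM in siNT, 19211 and 15165 CPM in siNampt and 17586 and 15917 CPM in HFD_C. Primitive endoderm markers were higher in 18 of 25 cases (median 0.10), but the batch 1 pair gave 0.64 and the batch 2 pair -0.29. Without HFD_siNT replicate 1 the median was -0.11, without HFD_siNampt replicate 1 also -0.11, and with length and GC offsets -0.11. Sox17, a transcription factor of this lineage, had 18.3 and 19.1 CPM in siNT, 23.8 and 32.8 CPM in siNampt and 17.8 and 16.5 CPM in HFD_C (0.60, SE 0.22, unadjusted p 0.0169). Lrp2, the endocytic receptor megalin, had 329.7 and 366 CPM in siNT, 478 and 522 CPM in siNampt and 391.8 and 457 CPM in HFD_C (0.52, SE 0.20, unadjusted p 0.0249). Both genes were higher in each batch, by 0.38 and 0.77 for Sox17 and 0.54 and 0.51 for Lrp2. With offsets for length and GC content Sox17 was 0.44 (edgeR unadjusted p 0.0541) and Lrp2 0.41 (unadjusted p 0.0953). Sox17, Lrp2 and Gata6 are the members of smallest p, and none of the 7 lower members is described here. Gata6, an early factor of the lineage, gave 0.36 (SE 0.18), with 102 and 113 CPM in siNT, 157 and 119.6 CPM in siNampt and 114 and 102 CPM in HFD_C.

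Signalling groups held single genes past an unadjusted p of 0.05 on both sides. In the FGF and ERK list 15 of 25 were higher (median 0.07), with 1 higher and 2 lower at an unadjusted p under 0.05. The higher one, Dusp4, a phosphatase that acts on ERK and is induced by it, had 7.02 and 10.9 CPM in siNT, 13.3 and 17.1 CPM in siNampt and 9.23 and 10.7 CPM in HFD_C (0.76, SE 0.29). In the insulin and IGF list 17 of 28 were higher, with a median of 0.17 that was -0.23 without HFD_siNampt replicate 1, 0.04 without HFD_siNT replicate 2, 0.00 with length and GC offsets, and 0.16 and -0.17 in the batch 1 and batch 2 pairs. The 3 genes of unadjusted p under 0.05, among them Rheb and Rictor, were lower. Rheb, the GTPase that activates mTORC1, stood at 424 and 552 CPM in siNT, 380.1 and 311 CPM in siNampt and 571 and 430.1 CPM in HFD_C (-0.50, SE 0.18). Rictor, of mTORC2, stood at 25.5 and 21.5 CPM in siNT, 17.3 and 18.2 CPM in siNampt and 22.9 and 25.2 CPM in HFD_C (-0.41, SE 0.18). For Rheb and Rictor the siNampt libraries were the lowest of the 6. The Hippo list had 15 of 21 higher, with a median of 0.19 that was 0.06 and 0.02 within the batch pairs and 0.04 both without HFD_siNT replicate 2 and without HFD_siNampt replicate 1. Its gene of smallest p was Yap1, the coactivator of Tead4, at 14.6 and 12.7 CPM in siNT, 22.8 and 17.6 CPM in siNampt and 12.4 and 13.7 CPM in HFD_C (0.57, SE 0.24).

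Cohesin genes were lower in 11 of 17 cases (median -0.06), and after Esco1 the smallest p-values were those of Pds5a (-0.38, SE 0.20) and Nipbl, the cohesin loader (-0.33, SE 0.18). In HFD_C Pds5a had 18.9 and 23.8 CPM and Nipbl 39.9 and 38.4 CPM. Among MSP domain and contact site genes 11 of 20 were higher (median 0.08), and beside Mospd1 the gene Vapa, which tethers the endoplasmic reticulum to other membranes, gave -0.31 (SE 0.17) with 737 and 671 CPM in HFD_C. Proteasome genes were lower in 31 of 47 cases (median -0.12). The median was 0.00 in limma on log2 TPM and 0.08 without HFD_siNampt replicate 1. Psma3 (-0.34, SE 0.14), Psmc6 (-0.34, SE 0.15) and Psmb2 (-0.28, SE 0.13) had an unadjusted p under 0.05. HFD_C held 1117 and 918 CPM of Psma3, 755 and 556 CPM of Psmc6 and 962 and 881 CPM of Psmb2. With offsets for length and GC content Psma3 moved to -0.03 (unadjusted p 0.781) and Psmc6 to 0.03.

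Ribosomal protein genes were lower in 53 of 76 cases for the cytosolic ribosome (median -0.05) and in 52 of 77 for the mitochondrial ribosome (median -0.08). Rps27 stood at 77.4 and 35.4 CPM in siNT, 25 and 27.3 CPM in siNampt and 54.9 and 27.2 CPM in HFD_C (-1.11, SE 0.37, unadjusted p 0.0104). Without HFD_siNT replicate 1, the highest library, Rps27 was -0.44. It was among the 68 genes that passed edgeR's adjustment in the fit with no low-count filter (adjusted p 0.000615), where the main fit called 0. Other genes named here, among them Idi1 and Tspan7, passed in that fit as well. Rpl30 gave -0.36 (SE 0.16), with 109.8 and 103 CPM in HFD_C. The value for Rpl30 turned to 0.05 with the length and GC offsets. Many near-identical processed copies of ribosomal protein genes exist in the genome, so these values are uncertain.

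Damage and stress groups held 0 to 2 genes each at an unadjusted p under 0.05. In the apoptosis list 15 of 22 were higher (median 0.12). There 2 genes (9.09%) were higher at an unadjusted p under 0.05, against 1.97% of all genes. Among these Htra2, a mitochondrial serine protease, had 24.6 and 21.6 CPM in siNT, 28.6 and 32.5 CPM in siNampt and 23.0 and 26.5 CPM in HFD_C (0.40, SE 0.18). Of p53 targets 18 of 29 were higher (median 0.07). Sesn1, the member of smallest p, had 9.40 and 7.74 CPM in siNT, 12.6 and 13.3 CPM in siNampt and 14.8 and 12.4 CPM in HFD_C (0.60, SE 0.25). Its HFD_C level was thus that of siNampt, with siNT the low group. In antioxidant defence 15 of 28 were lower (median -0.05). At an unadjusted p under 0.05, 1 was higher and 1 was lower (7.14%, against 4.27% of all genes). Prdx3, the mitochondrial peroxiredoxin, gave -0.36 (SE 0.16) and Txnrd1, cytosolic thioredoxin reductase, 0.45 (SE 0.20). HFD_C held 204 and 169 CPM of Prdx3 and 45.0 and 41.6 CPM of Txnrd1. DNA repair genes were 18 higher and 12 lower (median 0.11) and cell cycle genes 20 higher and 16 lower (median 0.05), with Ccne2 at -0.55 (SE 0.25) and 19.9 and 17.2 CPM in HFD_C. Without HFD_siNT replicate 1 Ccne2 was -0.15.

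An siRNA can itself be sensed, and both groups compared had received one. Genes of foreign RNA sensing and interferon were 13 higher and 9 lower, with a median of 0.28 that was -0.11 without HFD_siNampt replicate 2 and 0.04 in the batch 1 pair. At an unadjusted p under 0.05, 1 was higher and 2 were lower. Irf9, a transcription factor of interferon signalling, stood at 4.80 and 3.44 CPM in siNT, 6.08 and 7.85 CPM in siNampt and 5.09 and 5.62 CPM in HFD_C (0.76, SE 0.32). The lower ones, Dhx58 and Mx1, were at low counts. Dhx58, an RNA sensor of the RIG-I family, had 19 and 26 counts in siNT, 5 and 1 in siNampt and 6 and 11 in HFD_C. Mx1, an interferon-induced GTPase, had 1 and 30 counts in siNT, 0 and 2 in siNampt and 2 and 8 in HFD_C, so that its lower value rests on HFD_siNT replicate 2. The RNA interference machinery had 9 of 13 higher (median 0.11), autophagy and lysosome genes 22 of 32 (median 0.12) and imprinted genes 14 of 29 (median -0.04).

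Markers of other cells and of earlier stages were summed as well. Maternal and oocyte markers summed to 1154 and 1009.9 CPM in siNT, 1147 and 1444 CPM in siNampt and 1172 and 1118 CPM in HFD_C, with 16 of 20 members higher (median 0.54, most of them at low levels) and medians of -0.17 in batch 1 and 0.61 in batch 2. The 2-cell markers summed to 0.952 and 0.327 CPM in siNT, 1.65 and 1.30 CPM in siNampt and 3.18 and 0.379 CPM in HFD_C, with 3 of 4 tested higher. Their median of 1.70 ran from -2.20 without HFD_siNampt replicate 1 to 4.36 without HFD_siNT replicate 1, so it gives no direction. Cumulus and granulosa markers summed to 213 and 150.2 CPM in siNT, 184 and 182 CPM in siNampt and 300.4 and 239 CPM in HFD_C. Most of that was Serpine2, at 136 to 283 CPM, and Cyp19a1 was at 0 in all 6 libraries (5 of 9 tested higher, median 0.09). Sperm markers summed to 42.2 and 46.5 CPM in siNT, 58.8 and 53.4 CPM in siNampt and 43.1 and 51.9 CPM in HFD_C, with Tnp1, Smcp, Spem1 and Spata18 at 0 in all 6 (5 of 7 higher, median 0.36). The sperm median was -0.04 in the fit of only the 6 HFD libraries, and 0.03 and 0.20 in the batch 1 and batch 2 pairs. The Y-linked list had 4 of 4 lower (median -1.20) and the X inactivation list 3 of 5 higher (median 0.32). The part of these cells in the results was not tested.

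**Figure D5:**
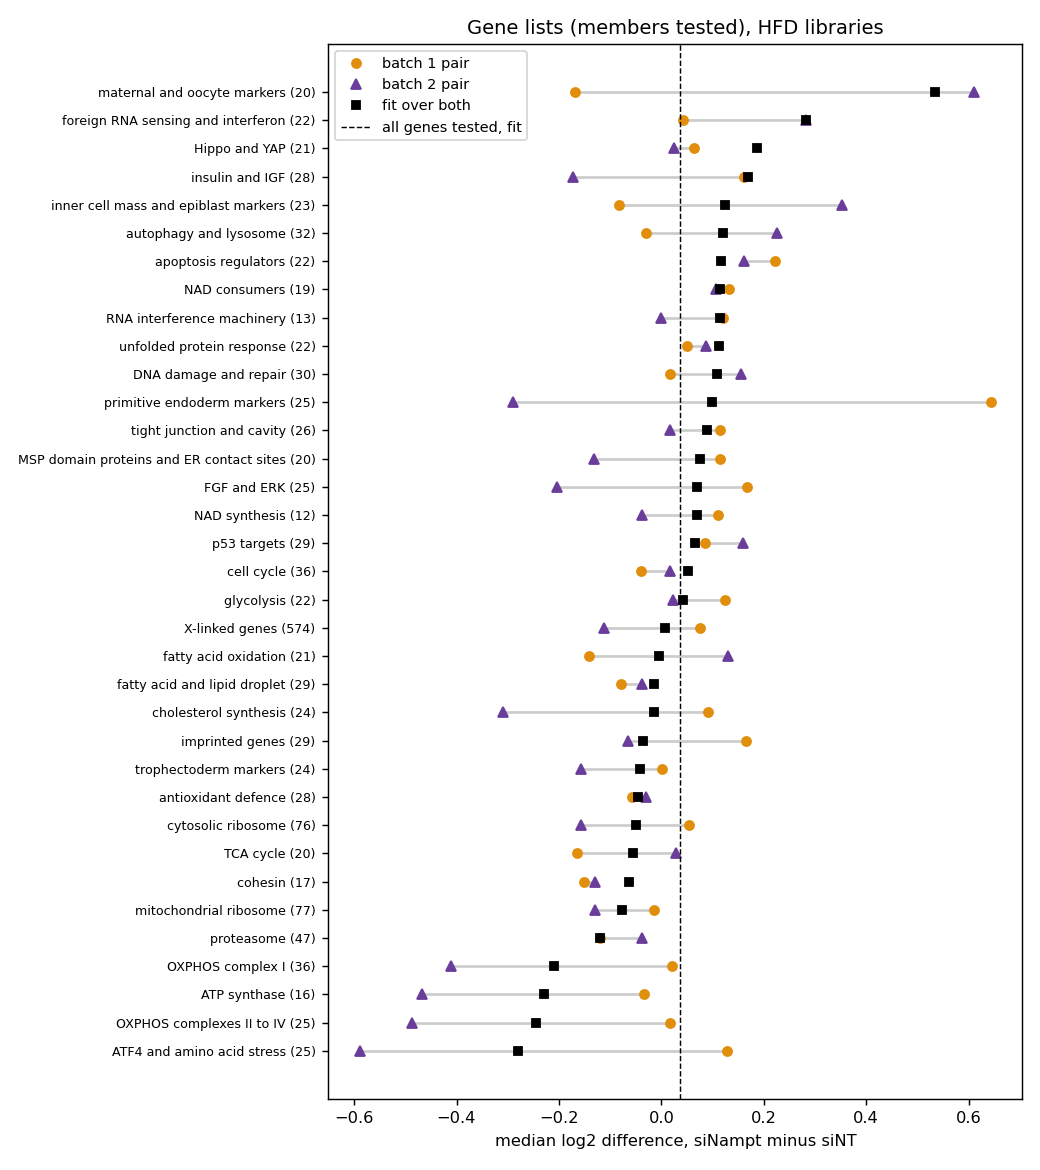
Median log2 difference, siNampt minus siNT, of the gene lists drawn, with the number of members tested in parentheses, from the fit over both batches (squares) and within the batch 1 and batch 2 pairs. The squares of the 3 oxidative phosphorylation lists lie at -0.21 to -0.24, with batch 1 near 0, and the ATF4 and primitive endoderm lists have batch pairs on opposite sides of 0.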

How the data were processed

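Poly(A) RNA libraries made with a SMART-Seq kit from pools of 10 blastocysts were deposited as 1 gene table per library. Its columns, per the file headers, hold the expected count, TPM, FPKM (not used here), length and effective length of each gene as RSEM writes them. The submitters' processing notes name STAR 2.7.10, RSEM 1.2.28 and mm10. No label or header names the strand setting, so overlapping antisense genes cannot be told apart. Fractions occurred in 6.43% of the deposited expected counts, which were rounded to whole numbers.

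Genes were filtered with filterByExpr (minimum count 10, 6 groups), leaving 14743 of 24411, scaled by TMM and tested with edgeR 4.0.16 (R 4.3.3, quasi-likelihood, two-sided, Benjamini-Hochberg, threshold 0.05) in a model of the 6 group means over all 12 libraries. SE is the absolute log2 fold change over the square root of F; its median at 5 CPM or more was 0.226. The tests were tested on simulated data first. Alternatives were DESeq2 1.42.0, limma 3.58.1 on log2 TPM, other filters, scalings, libraries, covariates and offsets; offsets with GC content, and the Y-linked covariate with the replicate block, were chosen after seeing the data.

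Named genes are Nampt, Mospd1 and Esco1, the 12 of smallest p in each direction without overlap between groups and with a mean of at least 5 CPM, the 6 of largest change of these with unadjusted p under 0.05, genes at 0 in 1 group, those DESeq2 called, and up to 4 of smallest p in each of 39 lists, not all printed; some genes in these counts are not reported here. Xist, Serpine2, Eif2s3y, Uty, Kdm5d and the marker genes at 0 were named after their values were seen. The members and lists were chosen with earlier results of these data known.

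The labels give batch equal to replicate number, so numbers pair the libraries. Over 15 pairs of groups, deviations of same-numbered libraries correlated across 8483 genes at r -0.11 to 0.56, and at 0.19 between HFD_siNT and HFD_siNampt. Gene names and coordinates came from RefSeq (GRCm38.p6), with 24358 of 24411 genes matched, and promoters from RefSeq's table.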

Additional observations from a re-analysis of the deposited data

How the results depend on the processing

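Adjusted edgeR calls for siNampt against siNT numbered 0, with 630 genes at an unadjusted p under 0.05. DESeq2 called 2 and the fit with no low-count filter 68 (998 unadjusted). Leaving out 1 library gave 0 to 1 calls (Tgoln2, without HFD_siNampt replicate 2) and 267 to 1255 genes unadjusted, the least without HFD_siNT replicate 2 and the most without HFD_siNampt replicate 1. Length and GC offsets left 378 unadjusted. The difference between diets had 0 calls and 451 genes unadjusted. It had 40 and 901 with no filter, 251 unadjusted with at least 5 CPM in 2 libraries, where fewer genes were tested, and 0 to 2 calls (Gm5424 and Tgoln2, without HFD_siNampt replicate 2) and 313 to 1164 genes with 1 library left out. Leaving out a library leaves its group with 1, assumed to vary like the others. With the replicate block 743 genes had an unadjusted p under 0.05, 573 of them among the 630, and 0 passed adjustment; no adjusted call changed. In edgeR the block took the unadjusted p under 0.05 for Nampt (0.0367), Asns (0.0495), Cyp51 (0.0138), Tspan8 (0.0458) and Plac1 (0.00966), and over it for Nmrk1 (0.0546), Sdhc (0.0505), Aqp3 (0.0530), Psmb2 (0.0504), Dhx58 (0.0588) and Mx1 (0.0584). For other counts the cause was not tested. Directions turned for Rpl30 (0.052, and 0.060 with the replicate block) and Psmc6 (0.031, and 0.032) under length and GC offsets, and Gm10052 ran from 0.00 without HFD_siNampt replicate 2 to 12.5 without HFD_siNampt replicate 1, and Mx1 from -7.08 without HFD_siNampt replicate 2 to 0.038 without HFD_siNT replicate 2. With 2 libraries a group, the median standard error of 0.226 at 5 CPM or more limits which changes can be detected.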
